A study of Mus musculus with 13 samples.

Results

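Muscle fibres hold ATP steady by moving phosphate between creatine and the adenine nucleotides. Creatine kinases exchange phosphate between phosphocreatine and ADP, in the cytosol and at the mitochondrion, adenylate kinase turns pairs of ADP into ATP and AMP, and AMP deaminase removes the AMP by turning it into IMP. Creatine itself is made in other organs, by GATM and then GAMT, and is taken up by muscle through the transporter SLC6A8.

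The transcripts of 9 genes of this system were followed in gastrocnemius muscle: the creatine kinases Ckm, Ckmt2 and Ckb, the creatine synthesis and transport genes Gatm, Gamt and Slc6a8, the adenylate kinase Ak1, and the AMP deaminases Ampd1 and Ampd3. They were chosen by name from the 21868 genes of the normalized count table, with earlier results of these data known. All 9 passed the filter that left 12303 genes for testing (a mean of at least 10 normalized counts over the 13 mice). The mice were male C57BL/6 animals by the labels, of the C57BL/6N substrain by the study's text. They entered the study at 7 weeks of age and, after 1 week of acclimatization, ate a diet with 60% of its energy from fat for 15 to 17 weeks, and all were then moved to regular chow for the 3 weeks of treatment. Of these, 5 vehicle mice received phosphate-buffered saline and placebo, 5 semaglutide mice received semaglutide, a GLP-1 receptor agonist, at 30 nM/kg/day by intraperitoneal injection and placebo, and 3 semaglutide + ketone ester mice had semaglutide at that dose and drank water that held ketone ester at 0.114 g/mL. All 3 groups therefore shared the earlier obesity and the change of diet, no group received the ketone ester alone, and no lean mice were analysed here.

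Each mouse gave 1 library of poly(A) RNA with 15319471 to 23498162 reads on genes, the deepest being semaglutide mouse 17. Muscle identity was clear, since the fast fibre myosin Myh4 stood at 930256 to 1254491 normalized counts in the vehicle mice. Semaglutide mouse 13 stood apart from the other 4 mice of its group: on the first principal component of all genes tested, which held 38.1% of the variance, it scored -9.1, whereas the other 4 scored 31.8 to 52.5, the vehicle mice -24.5 to -12.8 and the semaglutide + ketone ester mice -25.6 to -15.8. Results that rest on this mouse are given with and without it. Summed over 7 fast skeletal muscle markers, the same 4 mice (14 to 17) had 1255211 to 1765979 normalized counts, against 2136234 to 2630100 in the vehicle mice, 2352207 in mouse 13 and 2750283 to 3365938 in the semaglutide + ketone ester mice, with 3 of 7 markers lower and 0 higher in semaglutide than in vehicle, by the test used below, and 6 of 7 different between semaglutide + ketone ester and semaglutide. Within this list the myosin Myh1 lay above the vehicle range (59442 to 81947) in mice 14, 16 and 17, at 113920, 134139 and 86015. It was at 61692 in mouse 15 and 32406 in mouse 13. Summed over 5 red cell markers, mice 14, 16 and 17 had 53, 50 and 213, against 1356 to 2291 in vehicle, and Alas2 was at 0 in mouse 14. Mouse 15, at 1505, was inside the vehicle range, and mouse 13, at 3148, was above it. None of the 5 red cell markers passed between semaglutide and vehicle, and 4 of 5 passed between semaglutide + ketone ester (2849 to 5558) and semaglutide. Of 6 fibroblast and tendon markers, 4 were lower and 0 higher in semaglutide than in vehicle and 3 passed between semaglutide + ketone ester and semaglutide, with sums of 4586 to 14086 in vehicle, 5280 to 7287 in semaglutide and 8053 to 11330 in semaglutide + ketone ester mice. Scx of this list was 178, 121, 94.4, 67 and 55.2 in mice 13 to 17, against 66.4 to 94.3 in vehicle. Of 6 slow or oxidative fibre markers, 0 passed in either comparison. Mouse 16 had the highest sums of adipocyte markers (10771, other mice 141 to 2610) and of macrophage and leukocyte markers (1292, other mice 276 to 968). In whole muscle, fewer cells of a type and less RNA per cell cannot be told apart, and the part of these marker levels in the results below was not tested.

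To show the regions from which some of these transcripts start, the 250 bases before the annotated start of Ckm, Ckmt2, Ckb and Gamt are printed 5′ to 3′ on the strand of the gene (RefSeq, GRCm38.p6). They were chosen because Ckmt2, Ckb and Gamt fell under semaglutide whereas Ckm, the most abundant member, did not pass the test. Capitals mark every match, on either strand, to the E-box CAGCTG bound by muscle regulatory factors, the GC box GGGCGG, the TATA sequence TATAA and the nuclear receptor half-site AAGGTCA. The Ckm window is chr7:19410844-19411093 on the plus strand, and those of Ckmt2, Ckb and Gamt are chr13:91876886-91877135, chr12:111672339-111672588 and chr10:80261013-80261262, all on the minus strand.
Ckm: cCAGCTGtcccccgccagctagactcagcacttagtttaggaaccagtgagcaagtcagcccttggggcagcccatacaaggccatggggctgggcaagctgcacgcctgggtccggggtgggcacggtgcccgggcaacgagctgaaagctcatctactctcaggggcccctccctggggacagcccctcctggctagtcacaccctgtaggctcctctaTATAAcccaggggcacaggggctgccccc
Ckmt2: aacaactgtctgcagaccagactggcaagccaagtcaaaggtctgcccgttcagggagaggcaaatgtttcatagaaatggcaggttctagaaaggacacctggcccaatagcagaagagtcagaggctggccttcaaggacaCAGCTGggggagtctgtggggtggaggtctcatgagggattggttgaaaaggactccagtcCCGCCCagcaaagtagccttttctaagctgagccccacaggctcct
Ckb: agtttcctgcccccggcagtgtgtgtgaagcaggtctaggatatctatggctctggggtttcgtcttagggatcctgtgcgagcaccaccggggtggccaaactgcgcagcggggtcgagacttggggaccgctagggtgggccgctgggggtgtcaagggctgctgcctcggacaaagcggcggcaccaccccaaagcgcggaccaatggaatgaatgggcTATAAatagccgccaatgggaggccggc
Gamt: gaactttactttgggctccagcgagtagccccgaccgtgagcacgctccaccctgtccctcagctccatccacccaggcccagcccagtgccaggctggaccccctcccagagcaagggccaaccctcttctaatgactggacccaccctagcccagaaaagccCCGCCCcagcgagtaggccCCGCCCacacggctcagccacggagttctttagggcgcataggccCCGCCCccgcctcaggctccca
Of 32851 windows of this length in the RefSeq table, 13% held the E-box, 32.7% the GC box, 22.8% the TATA sequence and 4.08% the half-site. Ckm held 1 E-box and 1 TATA sequence, Ckmt2 held 1 E-box and 1 GC box, Ckb held 1 TATA sequence, and Gamt held 3 GC boxes and none of the others. These are letter matches in short windows, and the table held entries for 7 of the 9 members. Ak1, which also fell, has several annotated starts, and its windows are not printed. The half-site occurred in an Ak1 window, and other Ak1 windows held an E-box or no match.

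In the GENCODE M21 annotation of GRCm38, the creatine kinase genes lie at chr7:19404776-19422841 (Ckm, plus strand), chr13:91853387-91876885 (Ckmt2, minus strand) and chr12:111669361-111672338 (Ckb, minus strand). Gatm lies at chr2:122594467-122611303 and Gamt at chr10:80258151-80261012, both on the minus strand, and Slc6a8 at chrX:73673150-73682502 on the plus strand. The adenine nucleotide genes are all on the plus strand, Ak1 at chr2:32621758-32635058, Ampd1 at chr3:103074014-103099720 and Ampd3 at chr7:110768206-110812405.

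Divided by the length of the longest coding transcript, the members spanned several orders of magnitude in the vehicle mice. Ckm, the cytosolic muscle creatine kinase, led with 143276 ± 12468 normalized counts per kb (SD, n = 5). Ak1, the main cytosolic adenylate kinase of muscle, followed with 12460 ± 923, then Ckmt2, the mitochondrial creatine kinase of striated muscle, with 11481 ± 2320, and Ampd1, the AMP deaminase of skeletal muscle, with 7306 ± 1021. The transporter gene Slc6a8 stood at 572 ± 41.4, and Gamt at 149.6 ± 20.4. The lowest were Ampd3, a deaminase known from red cells, at 73.1 ± 18.4, Ckb, the brain type creatine kinase, at 51.5 ± 5.6, and Gatm, which makes the precursor that GAMT methylates, at 23.8 ± 6.76. The vehicle mice did not overlap between neighbours in this order, except for Ak1 with Ckmt2 and Ampd3 with Ckb. The order of the means was the same with the shortest coding transcript of each gene, and in the semaglutide + ketone ester mice. With the shortest transcript the vehicle mean was 318108 per kb for Ckm and 12773 for Ak1. In the semaglutide mice Ckmt2 came after Ampd1, and Gamt after Ampd3. Reads of Ckm alone made up 1.88 to 2.24% of all reads on genes in vehicle mice, 1.74 to 2.38% in semaglutide mice and 2.33 to 2.48% in semaglutide + ketone ester mice.

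**Figure D1:**
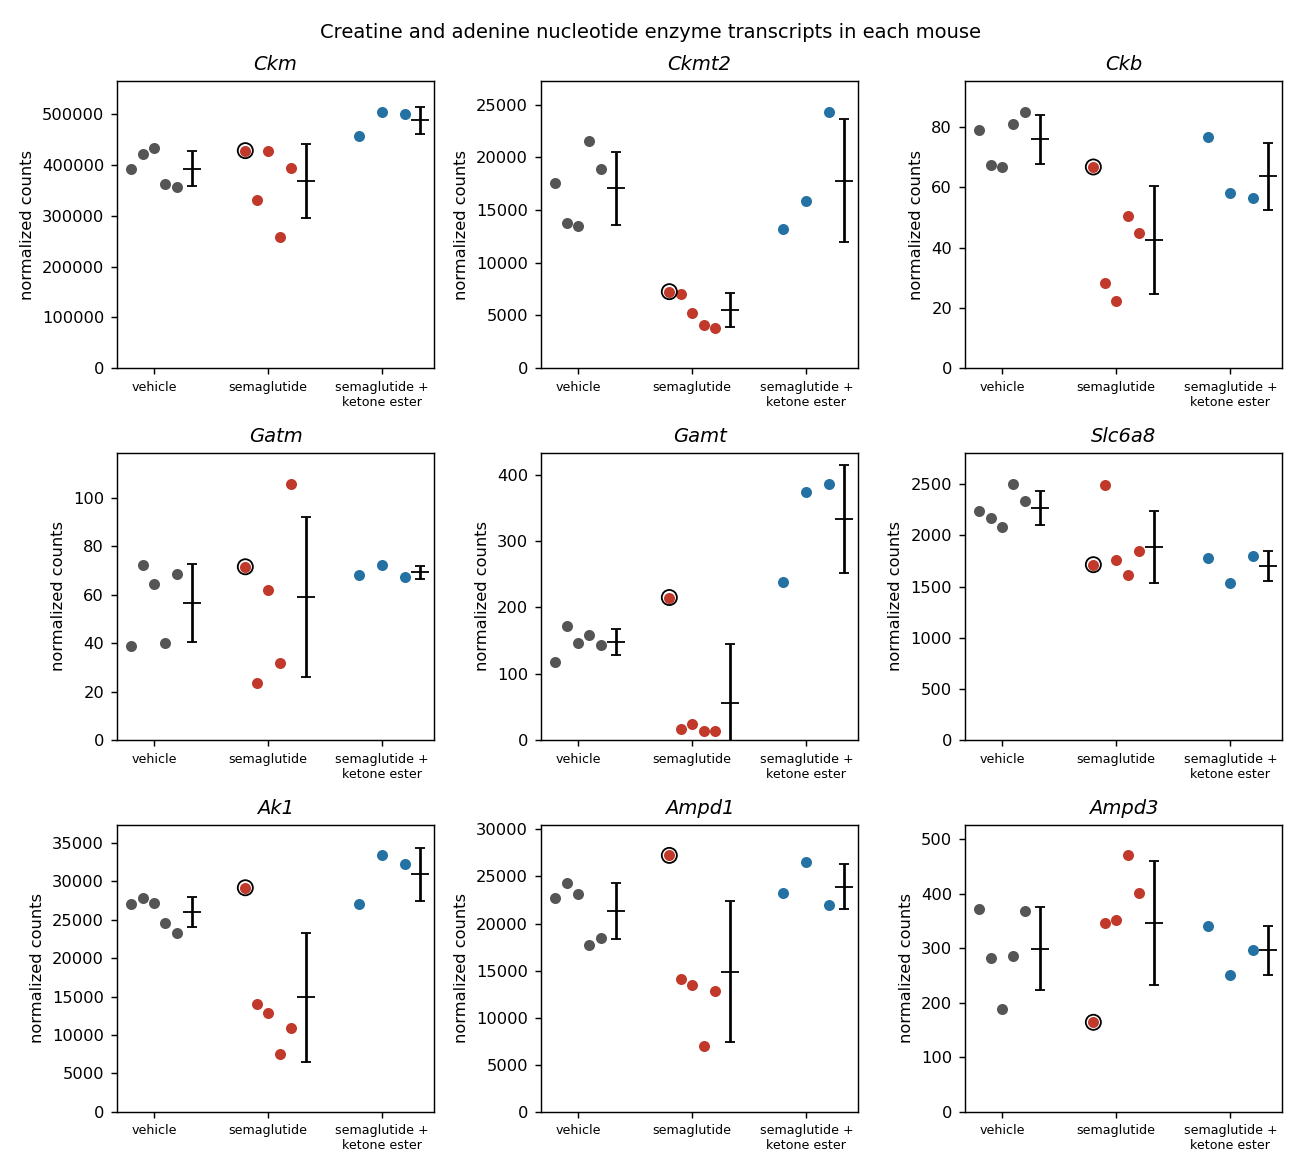
Normalized counts (vertical axis, linear from 0, its own scale in each panel) of the 9 genes in each mouse of the 3 groups. Each filled point is 1 mouse, a ring marks semaglutide mouse 13, and the black mark with its bar is the mean ± SD, cut at 0 for Gamt. All 5 semaglutide mice lie below the vehicle mice for Ckmt2, at 3802 to 7254 against 13512 to 21557, while for Gamt, Ak1 and Ampd1 mouse 13 lies above the vehicle mice.

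Differences between groups were tested with limma on log2(normalized count + 1), with Benjamini-Hochberg adjustment over the 12303 genes and a threshold of 0.05. Fold changes are on that scale, where the added 1 shrinks the change of low genes. They are differences of mean logs, so they can exceed the ratio of group means where the mice of a group differ widely. Between semaglutide and vehicle, the question being what the drug changed in muscle, 4 of the 9 members fell (Ckmt2, Ckb, Gamt and Ak1) and 0 rose, where 13.2% of all genes tested were lower and 11.9% higher. The median log2 fold change was -0.64 over the members and 0.00 over all genes tested. Because the members were chosen with earlier results known, these shares and medians describe them and do not test the set. Between semaglutide + ketone ester and semaglutide, the question being what the ketone ester added, 3 of 9 were higher (Ckmt2, Gamt and Ak1) and 0 lower, where 9.09% of all genes were higher and 9.3% lower, with medians of 0.66 and 0.00. Both comparisons share the 5 semaglutide mice, so an unusual semaglutide value moves them in opposite directions. Between semaglutide + ketone ester and vehicle, limma called 0 of 9 members in either direction, where 0.0732% of all genes were higher and 0.163% lower. That fit shares its estimate of the spread over all 3 groups, so the semaglutide mice enter these p-values too. By limma 1 of 9 had an unadjusted p under 0.05, and the medians were 0.18 and -0.01. edgeR also called 0, and so did DESeq2, which gave no adjusted p for Gamt. The study selected genes by analysis of variance and a minimum fold change. With that p under 0.05 and the fold taken here as the highest over the lowest group mean, at least 1.5, the same 4 members that fell (Ckmt2, Ckb, Gamt and Ak1) were altered, as were 16.1% of all genes tested.

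**Figure D2:**
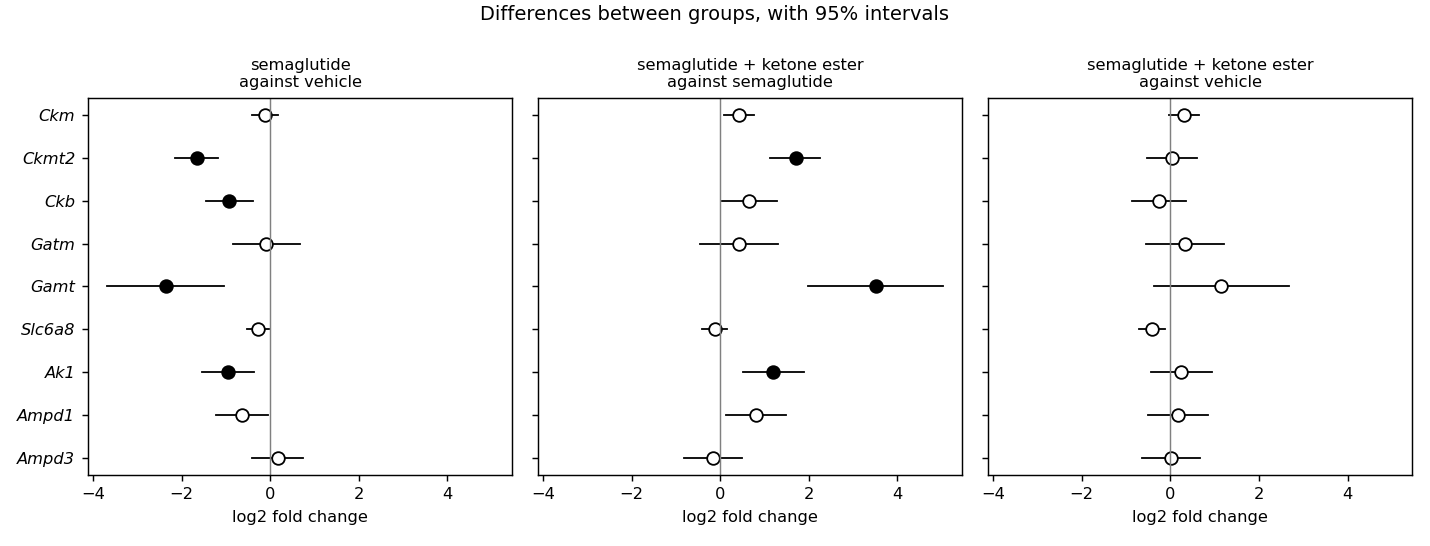
Fitted log2 fold change (horizontal axis) of each of the 9 genes in the 3 comparisons, from limma on log2(normalized count + 1). Lines are 95% intervals, and filled points passed an adjusted p of 0.05; 4 are filled in the left panel, 3 in the middle panel and 0 in the right panel.

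Ckmt2 sits between the mitochondrial membranes, where it charges creatine with phosphate from newly made ATP. Its normalized counts were 17598, 13737, 13512, 21557 and 18903 in vehicle mice 1 to 5, then 7254, 7064, 5236, 4125 and 3802 in semaglutide mice 13 to 17, and 13157, 15872 and 24319 in semaglutide + ketone ester mice 19, 21 and 22. All 5 semaglutide mice were below every mouse of both other groups, mouse 13 included. Ckmt2 and Ckb were the 2 members whose semaglutide and vehicle mice did not overlap, which held for 14.7% of all genes tested. For Ckb the gap was very narrow, from 66.7 in semaglutide to 66.8 in vehicle. Ckmt2 fell 3.16-fold with semaglutide (log2 fold change -1.66, SE 0.23, adjusted p = 0.00059) and was 3.24-fold higher in semaglutide + ketone ester than in semaglutide (1.70, SE 0.26, adjusted p = 0.0025). Against vehicle the semaglutide + ketone ester mice gave 0.03, with a 95% interval of -0.53 to 0.60. Leaving out any 1 mouse kept both calls, and mouse 13 left out gave -1.77 and 1.81. A noncoding gene on the opposite strand, 1700119I11Rik, overlaps a Ckmt2 exon, and the strand setting of the counting is not given in the sources used here.

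Ckm spends phosphocreatine at the contractile filaments. Vehicle mice had 391098, 420843, 433441, 361870 and 357061 normalized counts, semaglutide mice had 428048, 330592, 427552, 258639 and 394760, and semaglutide + ketone ester mice had 457458, 504525 and 500689. Vehicle and semaglutide overlapped widely, with 2 of 5 semaglutide mice below all vehicle mice, and the fitted difference was -0.12 (95% interval -0.41 to 0.18, adjusted p = 0.56). The 3 semaglutide + ketone ester mice were above every mouse of the other groups. Their difference was 0.43 from semaglutide (SE 0.15, adjusted p = 0.07) and 0.31 from vehicle (SE 0.15, adjusted p = 0.51). The first of these passed without mouse 13 (0.49, adjusted p = 0.031) and by DESeq2 (0.41, adjusted p = 0.026). The direction of the semaglutide difference depended on the scaling: it was 0.06 with columns rescaled to equal totals and 0.38 (adjusted p = 0.011) with quantile normalization, which also turned the difference between semaglutide + ketone ester and semaglutide to -0.15. A930016O22Rik lies on the opposite strand across a Ckm exon.

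Groups that did not overlap were found for 3 of 9 members between semaglutide + ketone ester and semaglutide (Ckm, Ckmt2 and Gamt), beside 20.1% of all genes. Between semaglutide + ketone ester and vehicle there were again 3 (Ckm and Gamt above, Slc6a8 below), beside 11.3%.

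Ckb, the cytosolic form known from brain and smooth muscle, was read at a far lower level. Vehicle mice had 79, 67.4, 66.8, 80.9 and 85 normalized counts, semaglutide mice 66.7, 28.2, 22.2, 50.5 and 44.8, and semaglutide + ketone ester mice 76.5, 58 and 56.5, from 20 to 73 reads a mouse. The semaglutide mice were all below the vehicle mice, although mouse 13, at 66.7, was just under the lowest of them, at 66.8. Ckb fell 1.89-fold with semaglutide (log2 fold change -0.92, SE 0.25, adjusted p = 0.019). In semaglutide + ketone ester mice the difference was 0.66 from semaglutide (SE 0.28, adjusted p = 0.12) and -0.26 from vehicle (adjusted p = 0.85). Without mouse 13, the first of these passed (0.85, adjusted p = 0.021). The summed level of 4 smooth muscle markers ran from 1930 to 2747 in vehicle and from 1258 to 2030 in semaglutide, with 2 of 4 lower by the test. Its part in the Ckb result was not tested.

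Within the creatine kinases, the mitochondrial share changed with Ckmt2. Ckmt2 made up 7.66, 5.68, 5.44, 9.9 and 8.9% of creatine kinase counts per kb in vehicle mice, 3.03, 3.79, 2.21, 2.86 and 1.75% in semaglutide mice, and 5.04, 5.49 and 8.22% in semaglutide + ketone ester mice. Semaglutide mice were below all others, with mouse 13 among them. Because Ckm dominates the sum, the size of this share depends on the Ckm transcript length used, which is the same for every mouse.

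Gamt, the enzyme of the last step of creatine synthesis, had the largest fitted fold changes of the 9 members in all 3 comparisons. Vehicle mice had 118, 172, 146, 159 and 144 normalized counts, and semaglutide + ketone ester mice had 239, 374 and 387. In the semaglutide group mouse 13 had 215 and mice 14 to 17 had 16.9, 23.3, 13.6 and 13.4, which come from 222 reads and from 15, 21, 14 and 18 reads. The 4 low mice were far below every other mouse, and mouse 13 was above all 5 vehicle mice. Gamt fell 5.13-fold with semaglutide (log2 fold change -2.36, SE 0.61, adjusted p = 0.016) and ranked 51 from the lowest of 12303 genes. It was 11.4-fold higher in semaglutide + ketone ester than in semaglutide (3.51, SE 0.70, adjusted p = 0.0068), ranking 16 from the highest. Both folds come from mean logs and are larger than those of the group means. These were 148 in vehicle, 56.4 in semaglutide and 334 in semaglutide + ketone ester. All 3 semaglutide + ketone ester mice were above all vehicle mice, with a difference of 1.15 (95% interval -0.38 to 2.68, adjusted p = 0.65). That interval rests on a spread shared by all 3 groups, so the wide spread of the semaglutide mice enters it. With limma on only the 2 groups compared, the same difference had an adjusted p of 0.0539.

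Mouse 13 decided several of the Gamt values. Without it the semaglutide difference was -3.08 (adjusted p = 5.2e-06), the difference between semaglutide + ketone ester and semaglutide was 4.23 (adjusted p = 1.9e-06), and the difference between semaglutide + ketone ester and vehicle passed (1.15, adjusted p = 0.038). With all mice, edgeR on the recovered reads gave -1.38 for semaglutide against vehicle (adjusted p = 0.12), so that call was lost. For semaglutide + ketone ester against semaglutide, edgeR gave 2.57 (adjusted p = 0.017).

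Gatm, the enzyme of the first step, passed in none of the 3 comparisons. Its levels were 38.9 to 72.2 in vehicle mice (median 64.3), 23.7 to 106 in semaglutide mice (median 62.2) and 67.3 to 72.5 in semaglutide + ketone ester mice (median 68). The groups overlapped, and the semaglutide difference was -0.09 with a wide 95% interval of -0.85 to 0.67 (adjusted p = 0.88). Its sign turned with scaling (0.08 with equal totals). Per kb, the ratio of Gamt to Gatm was 5.08 to 9.6 in vehicle mice, 7.25 in semaglutide mouse 13 and 0.307 to 1.73 in mice 14 to 17, and 8.51 to 13.9 in semaglutide + ketone ester mice.

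Slc6a8 brings creatine into the fibre from blood. Vehicle mice had 2241, 2175, 2079, 2507 and 2341 normalized counts, semaglutide mice 1714, 2496, 1763, 1614 and 1851, and semaglutide + ketone ester mice 1779, 1530 and 1798. In semaglutide, 4 of 5 mice were below all vehicle mice and mouse 14 was not, with a fitted difference of -0.28 (SE 0.12, adjusted p = 0.094). Without mouse 14 that difference passed (-0.39, adjusted p = 0.012). The difference between semaglutide + ketone ester and semaglutide was -0.13 (95% interval -0.42 to 0.15), where Gamt, Ckmt2 and Ak1 were higher, and it passed only with columns rescaled to equal totals (-0.37, adjusted p = 0.0488). All 3 semaglutide + ketone ester mice were below every vehicle mouse (-0.41, SE 0.13, unadjusted p = 0.0087, adjusted p = 0.28).

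Ak1 rebalances the adenine nucleotides when ATP is used quickly. Vehicle mice had 27000, 27819, 27171, 24574 and 23334 normalized counts, semaglutide mice 29171, 14076, 12849, 7474 and 10906, and semaglutide + ketone ester mice 27032, 33387 and 32299. Semaglutide mouse 13 was above every vehicle mouse, and the other 4 were below all of them. Ak1 fell 1.94-fold with semaglutide (log2 fold change -0.95, SE 0.27, adjusted p = 0.024) and was 2.3-fold higher in semaglutide + ketone ester than in semaglutide (1.20, SE 0.31, adjusted p = 0.021). The first call was lost without vehicle mouse 2, semaglutide mouse 15 or semaglutide mouse 17, and the second without semaglutide + ketone ester mouse 21 or 22. Without mouse 13 the differences were -1.23 (adjusted p = 0.00023) and 1.48 (adjusted p = 0.00025).

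Per kb, Ckm exceeded Ak1 by a ratio of 11 to 12.1 in vehicle mice and 11.5 to 12.9 in semaglutide + ketone ester mice. In semaglutide mice the ratio was 11.2 in mouse 13 and 17.9, 25.3, 26.3 and 27.5 in mice 14 to 17. Ckm and Ak1 therefore kept nearly the same proportion in 9 of 13 mice and departed from it in 4. The size of the ratio depends on the Ckm transcript length used (1235 bases for the shortest, 2742 for the longest), which is the same for every mouse.

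Ampd1 followed Ak1 from mouse to mouse. Vehicle mice had 22703, 24359, 23139, 17752 and 18452 normalized counts, semaglutide mice 27242, 14098, 13430, 6942 and 12783, and semaglutide + ketone ester mice 23204, 26586 and 21941. Mouse 13 was the highest of all 13 mice and mice 14 to 17 were the lowest, so the group difference missed the threshold (-0.64, SE 0.27, adjusted p = 0.1), as did that between semaglutide + ketone ester and semaglutide (0.81, SE 0.31, adjusted p = 0.086). Without mouse 13 both passed, at -0.89 (adjusted p = 0.0049) and 1.07 (adjusted p = 0.0044). Although the 2 genes moved together, their ratio differed between groups. Per kb, Ampd1 over Ak1 was 0.517 to 0.627 in vehicle mice and 0.486 to 0.614 in semaglutide + ketone ester mice. It was higher in every semaglutide mouse, at 0.665 to 0.839, with mouse 13 at 0.668.

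Ampd3 passed in none of the 3 comparisons. Its levels were 372, 281, 189, 286 and 368 in vehicle mice, 164, 346, 352, 470.0 and 401 in semaglutide mice and 340.1, 251 and 296 in semaglutide + ketone ester mice. The groups overlapped, mouse 13 was the lowest of all 13, and the semaglutide difference was 0.17 (95% interval -0.40 to 0.75, adjusted p = 0.67). Ampd3 made up 0.579 to 1.4% of the Ampd1 plus Ampd3 counts per kb in vehicle mice and 0.668 to 1.03% in semaglutide + ketone ester mice. In semaglutide it was 0.428% in mouse 13 and 1.72, 1.83, 4.6 and 2.18% in the other 4, above every mouse of both other groups. An exon of Ampd3 is overlapped by Gm47282 on the same strand and by B430319F04Rik on the opposite strand.

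**Figure D3:**
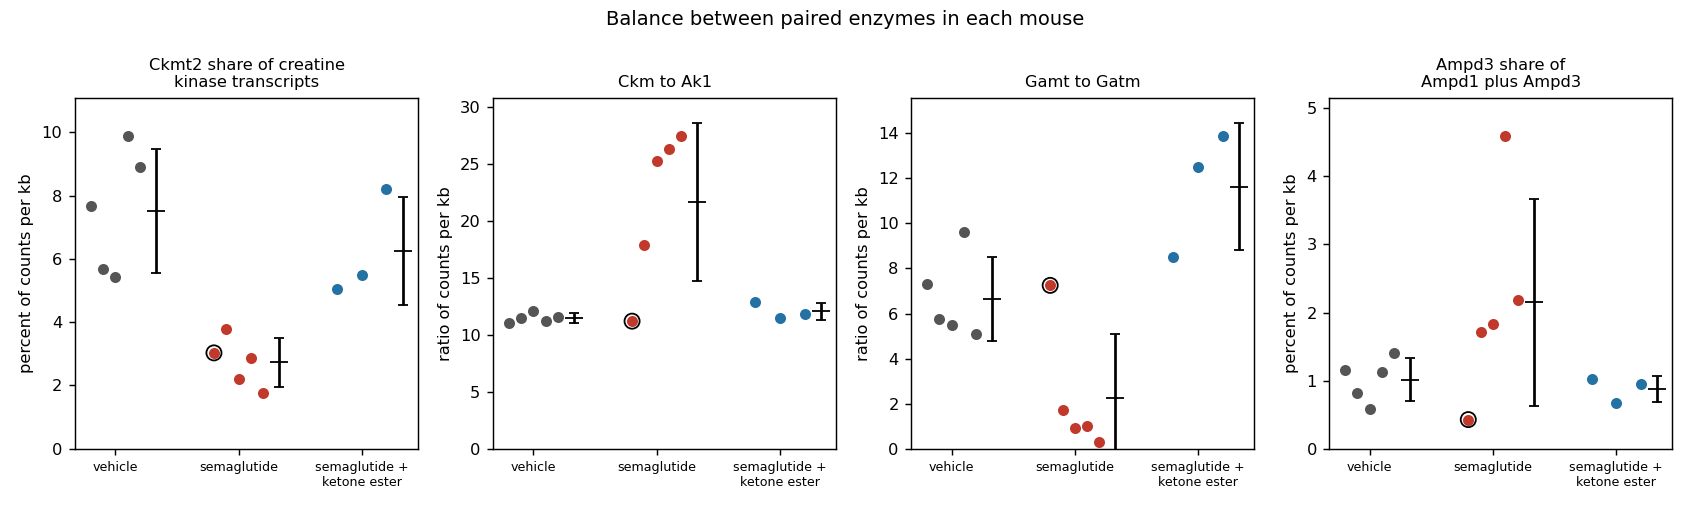
Balance between pairs of these genes in each mouse, from normalized counts per kb of the longest coding transcript (vertical axes, linear from 0, percent or ratio). Points are mice, a ring marks semaglutide mouse 13, and black marks are mean ± SD, cut at 0 for Gamt to Gatm. The Ckmt2 share is low in all 5 semaglutide mice (1.75 to 3.79%). For Ckm to Ak1 and Gamt to Gatm 4 of 5 lie outside the vehicle range and mouse 13 within it, and for the Ampd3 share 4 lie above that range and mouse 13 below it.

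For each member the genes most alike in log2 level across the 13 mice were looked up among 8720 genes with a mean of at least 100 normalized counts, by Pearson r, as a description in which the points share the 3 groups and mouse 13. Ckmt2 was most like Oxct1 (r = 0.991), the enzyme that lets muscle burn ketone bodies. Uqcrc1, a subunit of respiratory complex III, and Grb14 followed (both 0.986). Ak1 was most like the muscle phosphoglycerate mutase Pgam2 and the calcium store protein gene Casq1 (both 0.996), and Ckm was most like the glycogen phosphorylase Pygm (0.977). Gamt was most like Itgb1bp2 (0.984), which encodes the muscle protein melusin, Ampd1 like Nptn (0.985), and Ampd3 like the thin filament gene Lmod2 (0.941). The nearest genes were less alike for Ckb (Cspg4, a pericyte marker, 0.915), Slc6a8 (Dusp18, 0.912) and Gatm (Grhpr, 0.837). Among the members themselves, Ak1 and Ampd1 (0.961) and Gamt and Ak1 (0.957) were the closest.

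The surrounding pathways were described with a list of 63 genes of creatine and purine nucleotide metabolism that holds the 9 members, of which 54 were tested. Without the members, 3 of 45 rose with semaglutide and 6 fell, and in semaglutide + ketone ester against semaglutide 6 of 45 were higher and 3 lower, with medians of 0.02 and -0.01. As shares these are 6.67% higher and 13.3% lower, then 13.3% higher and 6.67% lower, beside the shares of all genes given above. With columns rescaled to equal totals the balance of directions turned: of the 54 tested, members included, 13 were higher and 7 lower with semaglutide in place of 3 and 10, and 5 higher and 13 lower in semaglutide + ketone ester against semaglutide in place of 9 and 3. Against vehicle, limma called 0 of 45 in semaglutide + ketone ester, with 4 at an unadjusted p under 0.05.

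Among the adenylate kinases, mitochondrial Ak4 fell with semaglutide beside Ak1. Its level was 104 to 136 in vehicle mice, 18.6 to 82.2 in semaglutide mice and 84.6 to 213 in semaglutide + ketone ester mice (log2 fold changes -1.68, adjusted p = 0.0053, and 1.68, adjusted p = 0.014). All 5 semaglutide mice were below every other mouse, as for Ckmt2, and the second call was lost without semaglutide + ketone ester mouse 22. Ak3 and Ak6 did not pass, and Ak5, Ak7, Ak8 and Ak9 were too low to test. The third AMP deaminase gene, Ampd2, did not pass either (-0.43, adjusted p = 0.2), but did for semaglutide against vehicle without mouse 13 (-0.66, adjusted p = 0.012).

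In purine salvage, Adk, which rephosphorylates adenosine to AMP, fell from 737 to 872 normalized counts in vehicle to 361 to 537 in semaglutide (-0.85, adjusted p = 0.0006), and was 767 to 976 with the ketone ester (0.93, adjusted p = 0.0019). Its semaglutide mice were below all others. The nucleotidase gene Nt5c moved the other way, up 0.47 with semaglutide (adjusted p = 0.025) and down in semaglutide + ketone ester against semaglutide (-0.95, adjusted p = 0.0029). The first of these calls was lost in 4 of 13 fits with 1 mouse left out (vehicle mice 4 and 5, semaglutide mice 15 and 16) and by DESeq2. Impdh2, which leads IMP towards GMP, rose from 153 to 198 in vehicle to 226 to 490.1 in semaglutide (0.99, adjusted p = 0.0039) and was lower with the ketone ester (-0.86, adjusted p = 0.02). Gart, of de novo purine synthesis, rose by 0.40 with semaglutide (adjusted p = 0.016). Adssl1, the muscle enzyme that starts the return from IMP to AMP in the purine nucleotide cycle, was lower in semaglutide + ketone ester than in semaglutide (-0.59, adjusted p = 0.01). The Impdh2 and Adssl1 calls between these groups were both lost without semaglutide + ketone ester mouse 21 or 22.

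The ADP/ATP carrier Slc25a4, which exchanges ADP and ATP across the inner mitochondrial membrane, fell by 0.33 on the log2 scale with semaglutide (adjusted p = 0.02), from 54046 to 58506 normalized counts in vehicle to 36397 to 48951, and was 0.37 higher with the ketone ester (adjusted p = 0.029). Of the subunits of AMPK, the kinase that senses AMP, Prkag2 fell (-0.59, adjusted p = 0.02), and Prkab2 fell (-0.63, adjusted p = 0.031) and was higher in semaglutide + ketone ester than in semaglutide (0.69, adjusted p = 0.0477). The calls of Nt5c1a (-0.96, adjusted p = 0.043) with semaglutide, and of Gmpr (0.55, adjusted p = 0.0483) and Paics (0.36, adjusted p = 0.0499) between semaglutide + ketone ester and semaglutide, were lost when most mice were left out in turn, in 12, 11 and 12 of 13 fits. The Prkab2 calls were lost in 6 and 11 of 13. The Prkag2 call was lost without semaglutide mouse 15 or 17 and with columns rescaled to equal totals. The Slc25a4 call between semaglutide + ketone ester and semaglutide was lost without semaglutide mouse 17 or semaglutide + ketone ester mouse 21 or 22, and both Slc25a4 calls were lost with equal totals and with quantile normalization. No adenosine receptor or transporter gene tested passed in these 2 comparisons.

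**Figure D4:**
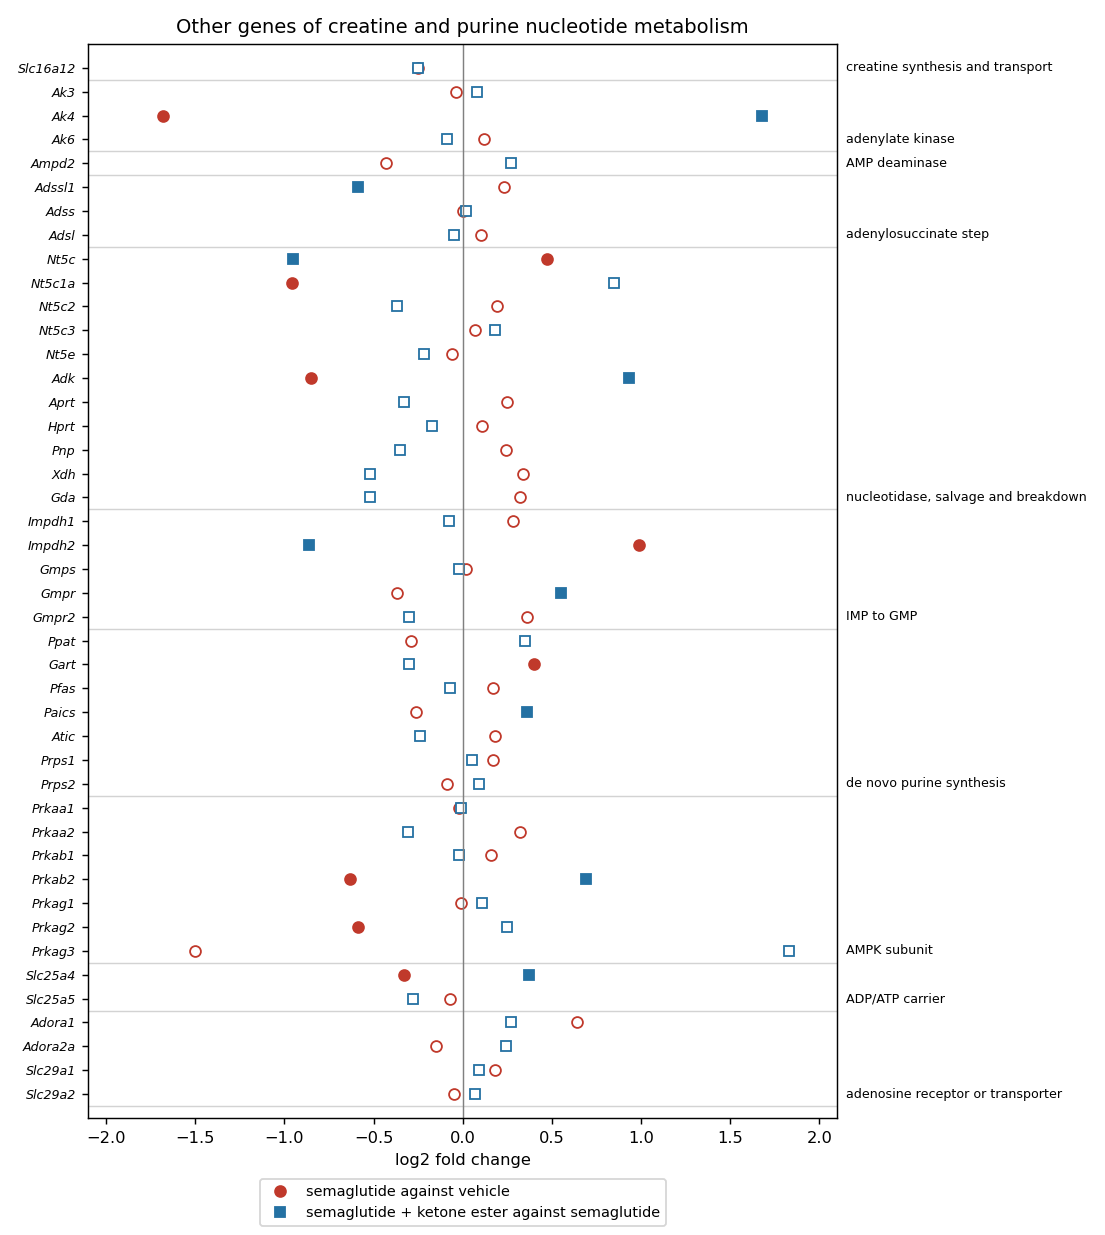
Fitted log2 fold change (horizontal axis) of tested genes of the wider list that are not members, grouped by role, for semaglutide against vehicle (red circles) and semaglutide + ketone ester against semaglutide (blue squares). Filled symbols passed an adjusted p of 0.05 in limma, 9 in each comparison; both comparisons share the 5 semaglutide mice.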

How the data were processed

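RNA was extracted from gastrocnemius with TRIzol, and stranded poly(A) libraries were sequenced as paired ends. The authors processed the reads with DRAGEN RNA on mm10 and deposited 1 signal per gene and mouse, described as normalized counts. The submitters' processing notes also name DESeq2 without a role. The counting program, its annotation and its strand setting are not given in the sources used here. All deposited values (100%, tolerance 0.01) were whole multiples of each column's smallest value, so whole reads were recovered for the count tests. edgeR called 3311 genes for semaglutide against vehicle, 2557 for semaglutide + ketone ester against semaglutide and 45 for semaglutide + ketone ester against vehicle on those reads, where limma called 3084, 2262 and 29.

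The test was limma 3.58.1 in R 4.3.3 on log2(normalized count + 1) with all 3 groups in 1 fit, two-sided. edgeR 4.0.16, DESeq2 1.42.0, other scalings, filters and pseudocounts, and leaving out each mouse were alternatives. The labels do not say more than that samples are separate mice, so p-values measure the spread between these mice. Positions and transcript lengths came from GENCODE M21 (GRCm38). All members were described whatever their values, and of the wider list those past the threshold were named. The members and all lists were chosen with earlier results of these data known. The fit was tried on simulated counts in which all genes had the same dispersion and no mouse stood apart from its group. That run does not show how the fit behaves with an outlying mouse. 1 gene of the wider list enters its counts and is not reported here.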

Additional observations from a re-analysis of the deposited data

Results flagged for a closer look

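Among the 18 groups of 5 mice examined (9 genes in the vehicle and the semaglutide mice), 2 held a mouse far from the others by Dixon's ratio of its gap to the range of the group, where the critical value is 0.71 and chance gives about 1 in 20. For Gamt in semaglutide the ratio was 0.951, with mouse 13 at 215 normalized counts and the other 4 at 13.4 to 23.3. For Slc6a8 in semaglutide it was 0.732, with mouse 14 at 2496 and the other 4 at 1614 to 1851.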

How the results depend on the processing

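No paired analysis was possible because the mouse numbers of the 3 groups are not shared. Ckmt2 kept both of its calls under every alternative run, and no member passed between semaglutide + ketone ester and vehicle except Gamt without semaglutide mouse 13. Leaving out 1 mouse gave 3 to 5 members called for semaglutide against vehicle, 2 to 6 for semaglutide + ketone ester against semaglutide (6 without mouse 13) and 0 to 1 for semaglutide + ketone ester against vehicle. For the list of 54 the ranges were 9 to 23, 4 to 21 and 0 to 1, and for all genes 2067 to 4447, 862 to 3954 and 1 to 77, with the highest count without mouse 13 in each. Weighting the mice by quality (arrayWeights) gave 6 members for semaglutide + ketone ester against semaglutide, 21 and 25 of the list, and 4847, 4279 and 205 of all genes in the 3 comparisons. Fitting only the 2 groups compared gave 4 of the list and 752 of all genes for semaglutide + ketone ester against semaglutide, and Ak1 was lost (adjusted p = 0.088). With columns rescaled to equal totals, 20 of the list passed for semaglutide against vehicle and 4195 of all genes for semaglutide + ketone ester against semaglutide. That scaling moved the median of all genes by 0.17 and -0.24, and the share of calls that were higher from 47.3% to 77.9%, from 49.4% to 14.5% and, for semaglutide + ketone ester against vehicle, from 31.0% to 16.2%. In that last comparison all genes called were 4 with no filter, 45 with limma-trend, 45 with edgeR and 172 with DESeq2, in place of 29. Signs turned, for differences that had not passed, in Ckm for semaglutide against vehicle (0.06 with equal totals, 0.38 with quantile normalization) and for semaglutide + ketone ester against semaglutide (-0.15 with quantile normalization), Gatm for semaglutide against vehicle (0.08 with equal totals, 0.14 with arrayWeights, 0.08 with edgeR, 0.07 with DESeq2), and, for semaglutide + ketone ester against vehicle, Ckmt2 (-0.03 with equal totals) and Ampd3 (-0.05 with equal totals, -0.00488 with edgeR, -0.01 with DESeq2). Left-out mice also turned Ckm and Gatm for semaglutide against vehicle, from -0.18 to 0.00532 and from -0.35 to 0.18, and Ckmt2 and Ampd3 for semaglutide + ketone ester against vehicle, from -0.22 to 0.23 and from -0.14 to 0.12. DESeq2 gave no adjusted p for Gamt, and a minimum mean of 100 left Ckb and Gatm untested. The cause of these differences was not tested. Depth limits Gamt, Ckb and Gatm, which rest on 14 to 322, 20 to 73 and 21 to 142 reads a mouse.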

Other observations

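Prkag3, the AMPK subunit of fast muscle, missed the threshold although its fitted log2 difference was -1.50 between semaglutide and vehicle (SE 0.56, adjusted p = 0.069 in limma). Between semaglutide + ketone ester and semaglutide it was 1.83 (SE 0.65, adjusted p = 0.067). Without semaglutide mouse 13 both passed, at -2.12 (adjusted p = 0.00035) and 2.44 (adjusted p = 0.00044), and both passed with limma-trend (adjusted p = 0.0463 and 0.045). The semaglutide mean was 1869 ± 2400 normalized counts (SD, n = 5) against 3229 ± 683 in vehicle (n = 5). Prkaa2, a catalytic subunit, gave 0.32 for semaglutide against vehicle (SE 0.11, adjusted p = 0.0519 in limma).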
